A study of Mus musculus with 19 samples.

Results

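The miR-28, miR-151 and miR-708 hairpins form 1 family of microRNAs, and each arm of the 3 hairpins is a name in the deposited table. The members were taken by name: miR-28, miR-28*, miR-151-5p, miR-151-3p, miR-708 and miR-708*, which are 6 of the 528 names. All 6 had reads in all 19 libraries and passed the filter on low values. The libraries held reads of 19 to 24 nt bound to Ago2 in the brains of mice at postnatal day 56. Purkinje cells of the cerebellum (n = 3 libraries, each of 3 pooled tissues) were set against whole cerebellum (n = 3, 1 tissue each), both from C57BL/6 and black swiss mice. In the neocortex, 3 libraries of Gad2 cells and 2 each of PV and SST cells came from C57BL/6 and 129 mice, with 4 tissues pooled per library. Camk2a cells (n = 3) and whole neocortex (n = 3) came from C57BL/6 and BALB/c mice, with 1 tissue per library. Ago2 was precipitated with anti-myc from the Purkinje, Gad2, PV, SST and Camk2a groups and with anti-Ago2 from both whole tissues. The 5 cell groups were thus taken by a Myc tag rather than by sorting, and the driver lines are not given in the sources used here. Gad2 marks GABAergic neurons at large, PV and SST mark separate classes of them, Camk2a marks excitatory neurons, and Purkinje cells are the GABAergic output neurons of the cerebellar cortex.

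MicroRNAs guide Argonaute proteins to messenger RNAs, mainly by pairing of the seed near their 5′ end, and each hairpin can give a microRNA from either arm. All 3 hairpins are intronic and are read from the same strand as their host genes. By GENCODE M21 on GRCm38, the miR-28 hairpin (chr16:24827855-24827940, + strand) lies in an intron of Lpp, which encodes an actin-associated adhesion protein. The miR-151 hairpin (chr15:73254815-73254882, - strand) lies in an intron of Ptk2, which encodes focal adhesion kinase. The miR-708 hairpin (chr7:96249424-96249532, + strand) lies in an intron of Tenm4, which encodes a teneurin, a transmembrane protein of neuronal connections. None of the hairpins overlapped an annotated exon of its host. The files hold no positions, so all coordinates are those of the annotation.

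The mature sequences of miR-28 and miR-708 show which of their arms share a seed, and 4 of the 6 members had an entry in RefSeq (GRCm38.p6, both hairpins on the + strand). They are written 5′ to 3′ with the seed, bases 2 to 8, in capitals.
miR-28: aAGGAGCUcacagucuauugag
miR-708: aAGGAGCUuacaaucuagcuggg
miR-28*: cACUAGAUugugagcugcugga
miR-708*: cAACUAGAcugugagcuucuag
miR-28 and miR-708 have the same seed and the same first 8 bases. Over 22 positions, counted from 1 at the 5′ end, they differ by C9U, G13A, U18G, U19C, G20U and A21G, with the base of miR-28 first. The seeds of the 2 star arms differ, though both contain ACUAGA, which starts 1 base later in miR-708* than in miR-28*. The longest run shared by the star arms, of 8 bases, starts at base 9 of miR-28* and base 10 of miR-708*. Among the 421 names in the table with a RefSeq sequence, miR-28 and miR-708 alone carried the hexamer AGGAGC within bases 1 to 9. miR-151-5p and miR-151-3p had no such sequence and were not searched, so whether they carry the hexamer was not tested. For them the names and values are given.

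Library depth ran from 1229834 miRNA reads (Cerebellum replicate 1) to 14249087 (Gad2 replicate 1). Levels are reads per 1000000 miRNA reads (RPM), which are relative to the rest of the miRNAs in a library and say nothing of copies per cell. Reads of different sequences are not calibrated against each other. Neuronal marker miRNAs were present in every group (167283 to 379828 RPM summed over 4 markers), with the lowest sums in SST. Marker lists of other cells were summed in the same way: 3 of 4 vascular, 6 of 6 blood and microglia, 3 of 3 oligodendrocyte and 3 of 5 ependymal and choroid markers were in the table. Of these only miR-142-3p was at 0 in all libraries of a group, SST. The sum of the ependymal and choroid markers is called the choroid sum below, though it is not of choroid markers alone. The p-values measure the spread between libraries, which may be partly technical, since separate animals are not stated for replicates.

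miR-708, the more abundant arm of its hairpin, was high in Camk2a cells and low in whole cerebellum. Purkinje libraries held 1636, 1507 and 1261 RPM, against 118, 133 and 110.1 RPM in the Cerebellum libraries. Gad2 libraries held 925, 1095 and 1699 RPM, PV libraries 974 and 1332 RPM, and SST libraries 1708 and 1454 RPM. Camk2a libraries held 3495, 4338 and 3846 RPM, against 1129, 2105 and 2429 RPM in the Neocortex libraries. All Camk2a libraries stood above all other libraries, and the 3 Cerebellum libraries stood below all others. By mean the order, high to low, was Camk2a, Neocortex, SST, Purkinje, Gad2, PV and Cerebellum. From Neocortex down to PV each group overlapped the next, while the step from PV to Cerebellum was 9.57-fold. The star arm miR-708* followed closely, with a Pearson r of 0.98 to miR-708 over the 7 group means of log2 values, which share libraries. miR-708* ran from 381 to 419 RPM in Purkinje cells against 36.6 to 49.5 RPM in Cerebellum. It ran from 195 to 311 RPM in Gad2, 307 to 318 RPM in PV and 351 to 382 RPM in SST. In Camk2a cells it held 505 to 529 RPM, against 299 to 431 RPM in Neocortex. Its highest group mean was 12.2 times its lowest, against 32.3 times for miR-708.

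miR-151-5p, the main arm of the Ptk2 intron hairpin, was highest in Purkinje cells and lowest in neocortical interneurons. Purkinje libraries held 3716, 4078 and 3508 RPM, against 1382, 1692 and 1716 RPM in the Cerebellum libraries. Gad2 libraries held 409.9, 410.4 and 421 RPM, PV libraries 277 and 371 RPM, and SST libraries 841 and 703 RPM. Camk2a libraries held 1055, 1513 and 1399 RPM, against 1719, 1688 and 2462 RPM in the Neocortex libraries. No Purkinje library overlapped any other group, and all Gad2 and PV libraries stood below all others. SST lay apart from both, above Gad2 and below Camk2a. Neocortex, Cerebellum and Camk2a overlapped as neighbours in that order. Ranked by group mean, miR-151-5p stood at 31 of 528 names in Purkinje cells and at 108 in PV cells. The minor arm miR-151-3p had 91.2 to 122 RPM in Purkinje cells against 41.1 to 43.9 RPM in Cerebellum. It had 13.97 to 28.9 RPM in Gad2, 19.1 to 19.8 RPM in PV and 36.8 to 40.7 RPM in SST. Camk2a cells held 100.8 to 128 RPM of it, against 76.6 to 108 RPM in Neocortex. For this arm Camk2a, Purkinje and Neocortex were the 3 highest groups and overlapped as neighbours, so that Purkinje cells did not stand apart as they did for miR-151-5p.

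miR-28, the least abundant of the 3 main arms, was high in whole cerebellum and low in Camk2a cells. Purkinje libraries held 90.6, 76.5 and 69.5 RPM, against 209, 194 and 172 RPM in the Cerebellum libraries. Gad2 libraries held 48.5, 59.5 and 71.2 RPM, PV libraries 56.5 and 83.8 RPM, and SST libraries 68.03 and 48.4 RPM. Camk2a libraries held 15.04, 23.002 and 21.6 RPM, against 39.1, 88.3 and 81.4 RPM in the Neocortex libraries. Cerebellum stood above and Camk2a below all other libraries, and the 5 groups between them overlapped as neighbours. In bulk tissue, fewer cells of a type and less RNA per cell cannot be told apart. The star arm was ordered differently. miR-28* had 44.1, 48.8 and 55.9 RPM in Purkinje cells, against 20.3, 29.8 and 24.5 RPM in Cerebellum. It had 8.7, 7.69 and 5.87 RPM in Gad2, 13.5 and 12.8 RPM in PV, and 3.13 and 8.54 RPM in SST. Camk2a cells held 4.27, 2.42 and 3.78 RPM, against 9.31, 5.86 and 6.48 RPM in Neocortex. Purkinje cells were thus highest for the star arm and Cerebellum for the main arm. The lowest count behind these values was 4 reads, in SST replicate 1.

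**Figure D1:**
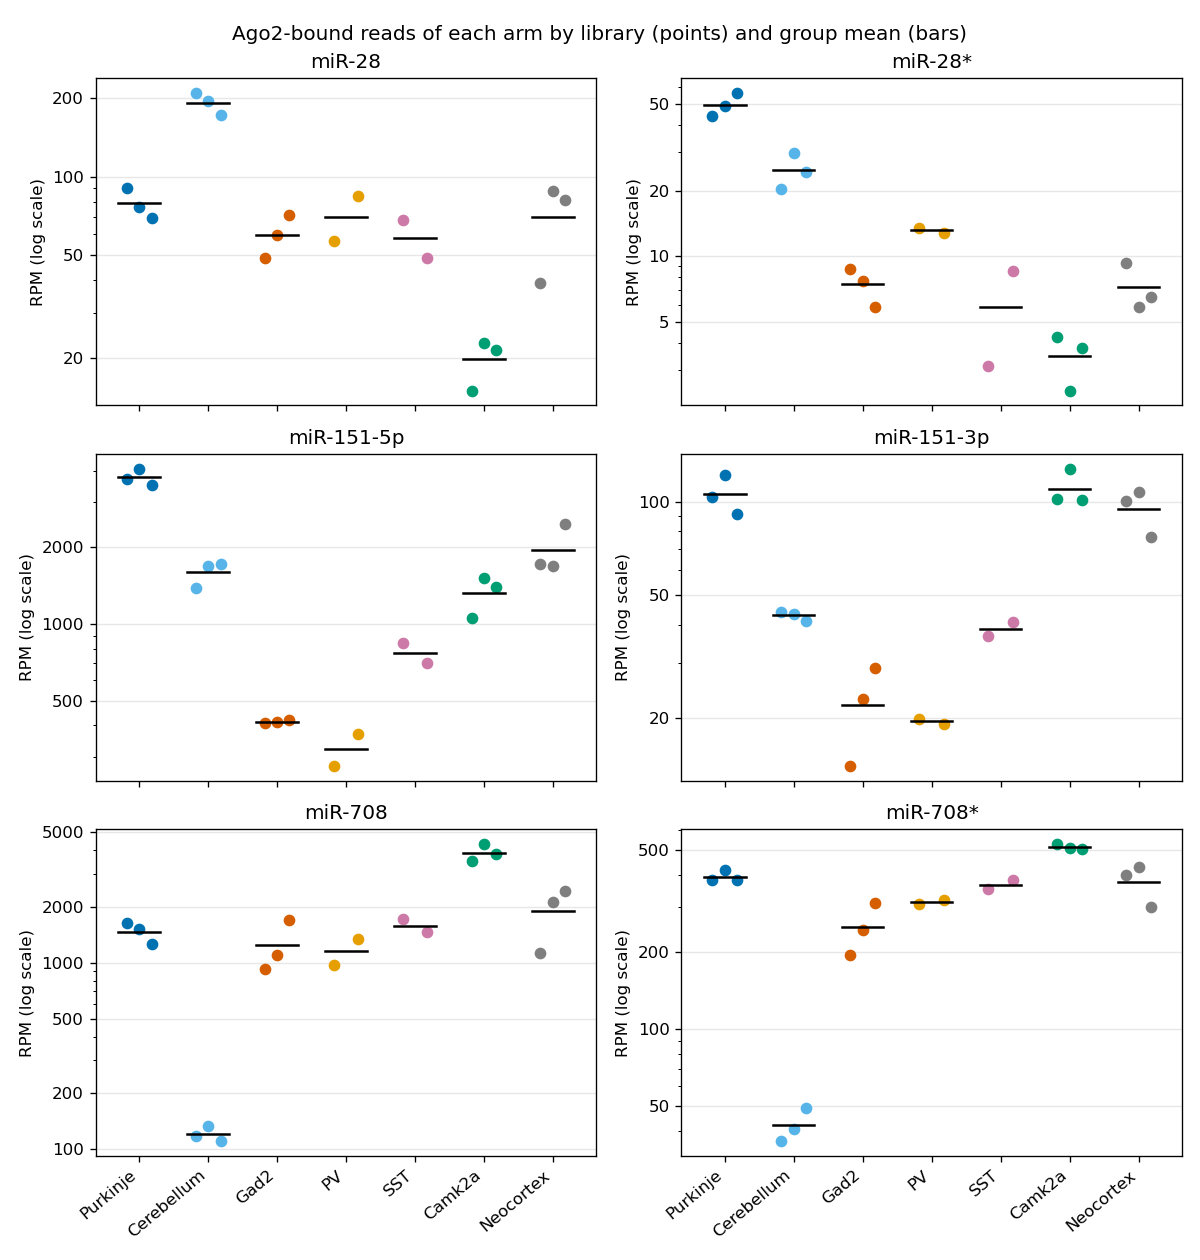
Level of each arm in RPM (log axes) in the 19 libraries (points), with group means (bars). miR-708 and miR-708* stand lowest in whole cerebellum, miR-151-5p stands highest in Purkinje cells, and miR-28 stands highest in whole cerebellum and lowest in Camk2a cells.

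Summed over both arms, the 3 hairpins had near-equal mean levels in Purkinje and Camk2a cells, but by different members. The sum was 5864 ± 453 RPM in Purkinje cells (SD, n = 3) and 2019 ± 181 RPM in Cerebellum (SD, n = 3). It was 1992 ± 485 RPM in Gad2 (SD, n = 3), 1892 ± 346 RPM in PV (SD, n = 2) and 2823 ± 262 RPM in SST (SD, n = 2). Camk2a cells held 5864 ± 657 RPM, against 4392 ± 980 RPM in Neocortex (SD, n = 3 each). The miR-151 hairpin gave 66.1% ± 1.84 of the family's reads in Purkinje cells and 81.1% ± 2.19 in Cerebellum (SD, n = 3 each). The miR-708 hairpin gave 74% ± 4.75 in Gad2 (SD, n = 3), 77.5% ± 0.359 in PV and 69.05% ± 0.833 in SST (SD, n = 2 each). It gave 75.3% ± 1.83 in Camk2a cells and 51.1% ± 6.15 in Neocortex (SD, n = 3 each). Reads of the family were therefore mostly miR-151 in the cerebellar groups and mostly miR-708 in the neocortical cell groups.

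**Figure D2:**
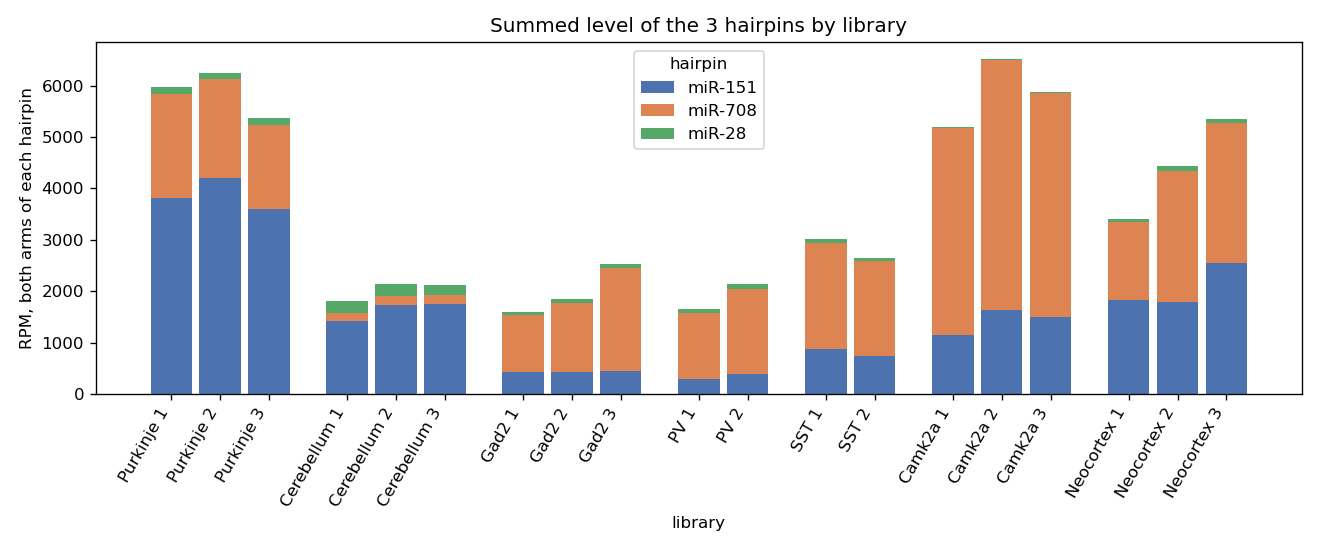
Summed level of both arms of each hairpin in every library, in RPM, stacked by hairpin. Purkinje and Camk2a libraries reach 5199.6 to 6514 RPM, with miR-151 the larger part in Purkinje cells and miR-708 the larger part in Camk2a cells.

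The 2 arms that share the seed AGGAGCU had opposite orders in different groups. Of the summed reads of miR-28 and miR-708, miR-28 made up 5.1% ± 0.237 in Purkinje cells and 61.4% ± 2.34 in Cerebellum (SD, n = 3 each). The share was 4.72% ± 0.609 in Gad2 (SD, n = 3), 5.7% ± 0.309 in PV and 3.53% ± 0.43 in SST (SD, n = 2 each). It was 0.504% ± 0.068 in Camk2a cells and 3.54% ± 0.426 in Neocortex (SD, n = 3 each). Whole cerebellum was the only one of the 7 groups in which miR-28 had more reads than miR-708, in 3 of 3 libraries (59.3% to 63.9%). Reads of the 2 sequences are not calibrated against each other, so equal RPM need not be equal amounts. The 2 arms together held 1547 ± 201 RPM in Purkinje cells and 312 ± 26.2 RPM in Cerebellum (SD, n = 3 each). In Camk2a cells the sum was 3913 ± 427 RPM, against 1957 ± 702 RPM in Neocortex (SD, n = 3 each). Over the 7 group means of log2 values the Pearson r between the 2 arms was -0.9, with Cerebellum and Camk2a at the ends, which is given as a description. miR-151-5p had an r of 0.14 with miR-28 and -0.04 with miR-708 over the same means.

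**Figure D3:**
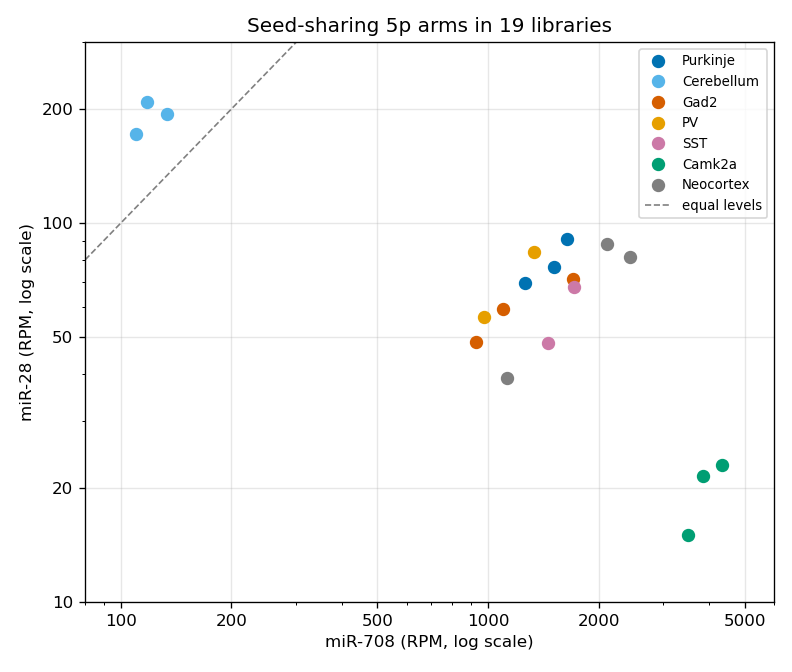
Level of miR-28 (y) against miR-708 (x) in 19 libraries, both in RPM on log axes, with a dashed line of equal levels. The 3 Cerebellum libraries lie above the line, the 3 Camk2a libraries lie farthest below it, and the other 13 libraries lie between.

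The levels were compared with limma across all 522 tested miRNAs. All 6 members differed between any of the 7 groups, against a background of 87.2% of tested miRNAs (adjusted p from 3.92e-12 for miR-151-5p to 1.63e-07 for miR-28). The background of calls was high in every comparison, so the sizes and directions carry more than the counts.

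Whole cerebellum was compared with whole neocortex, which asks how the family differs between regions under the same antibody. Strain changes with region (black swiss in Cerebellum, BALB/c in Neocortex) and cannot be told apart from it. Of the 6 members 2 were higher and 3 lower, and 55.6% of all tested miRNAs passed (19.5% higher, 36% lower). miR-708 was 14.9-fold lower and its star arm miR-708* 8.86-fold lower in cerebellum (log2 change -3.15 ± 0.18 SE, adjusted p = 2.2e-11), with no overlap of libraries. miR-151-3p was 2.19-fold lower (adjusted p = 0.000476), at 42.8 ± 1.48 RPM in Cerebellum and 94.7 ± 16.2 RPM in Neocortex (SD, n = 3 each). miR-28 was 2.91-fold higher (log2 change 1.54 ± 0.28 SE, adjusted p = 1e-04), and miR-28* 3.44-fold higher (adjusted p = 0.000252). miR-151-5p did not pass, at 1597 ± 186 RPM in Cerebellum and 1957 ± 438 RPM in Neocortex (SD, n = 3 each, log2 change -0.28 ± 0.18 SE, adjusted p = 0.186). The median log2 change was -0.7 over the members and -0.4 over all tested miRNAs. The choroid marker sum was 1338 to 1827 RPM in Cerebellum and 65.6 to 96.03 RPM in Neocortex, and the vascular sum 5810 to 6312 RPM in Cerebellum and 7841 to 8178 RPM in Neocortex. The part of these cells in the results was not tested.

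Purkinje cells were next set against the whole cerebellum they come from, which asks which members these neurons hold beyond the tissue. All 6 members passed, 5 higher and 1 lower, where 68.6% of all tested miRNAs passed (31.2% higher, 37.4% lower). miR-708* was 9.37-fold higher in Purkinje cells (log2 change 3.23 ± 0.18 SE, adjusted p = 3.56e-12), beside 12.1-fold for miR-708. miR-151-5p was 2.37-fold higher (adjusted p = 2.94e-06) and miR-151-3p 2.44-fold (adjusted p = 8.12e-05), so that both arms of that hairpin rose together. The arms of miR-28 moved in opposite directions. miR-28 was 2.44-fold lower (log2 change -1.28 ± 0.28 SE, adjusted p = 0.000442) and miR-28* 2.01-fold higher (log2 change 1.01 ± 0.36 SE, adjusted p = 0.0169). The call for miR-28* was lost without Cerebellum replicate 1 (adjusted p = 0.0618) or Purkinje replicate 3 (adjusted p = 0.0502). The median log2 change was 1.27 over the members and -0.19 over all tested miRNAs. The antibody and the pooling changed with the group and cannot be told apart from it. Markers of other cells moved with it too: vascular sums were 323 to 424 RPM in Purkinje cells and 5810 to 6312 RPM in Cerebellum. Blood and microglia sums were 36.995 to 66.1 RPM in Purkinje cells and 2474 to 2964 RPM in Cerebellum. Choroid sums were 10.7 to 17.4 RPM in Purkinje cells and 1338 to 1827 RPM in Cerebellum. Oligodendrocyte sums were 2685 to 3187 RPM in Purkinje cells and 3280 to 3464 RPM in Cerebellum, and the part of these cells in the results was not tested.

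In the neocortex, Camk2a cells and Gad2 cells were each compared with the whole tissue, and the 2 comparisons share the Neocortex libraries. The antibody changes with the group in both, and strain and pooling as well for Gad2, so these cannot be told apart from the group. Of the 6 members, 2 were higher and 3 lower in Camk2a cells, where 44.8% of all tested miRNAs passed (16.9% higher, 28% lower). miR-28 was 3.34-fold lower in Camk2a cells (log2 change -1.74 ± 0.28 SE, adjusted p = 5.61e-05) and miR-708 2.16-fold higher (log2 change 1.11 ± 0.24 SE, adjusted p = 0.00105). Smaller changes were a rise of 1.38-fold for miR-708* (adjusted p = 0.0435) and falls of 2.05-fold for miR-28* (adjusted p = 0.0228) and 1.47-fold for miR-151-5p (adjusted p = 0.0145). The calls of miR-28* and miR-151-5p were lost with TMM factors (adjusted p = 0.111 and 0.265). Both calls were also lost in edgeR with TMM or RLE factors and in DESeq2. The adjusted p in these fits ran from 0.0504 to 0.0772 for miR-28* and from 0.125 to 0.254 for miR-151-5p. That of miR-28* was also lost without Camk2a replicate 2 or Neocortex replicate 1 (adjusted p = 0.105 and 0.0983), and that of miR-151-5p without Camk2a replicate 1 or Neocortex replicate 3 (adjusted p = 0.0999 and 0.094). The call of miR-708* was lost in 10 of the 19 fits without 1 library, with the highest adjusted p of 0.208 without Neocortex replicate 3. miR-151-3p did not pass in limma (110.1 ± 15.3 RPM in Camk2a and 94.7 ± 16.2 RPM in Neocortex, SD, n = 3 each, adjusted p = 0.482), but did in edgeR with TMM factors (log2 change 0.53, adjusted p = 0.048). Of the 6 members, 3 were lower and 0 higher in Gad2 cells, where 45% of all tested miRNAs passed by limma (20.7% higher, 24.3% lower). At unadjusted p under 0.05, 0 were higher and 4 lower, and edgeR and DESeq2 called 0 higher as well. miR-151-5p was 4.66-fold lower in Gad2 cells (log2 change -2.22 ± 0.18 SE, adjusted p = 3.53e-09) and miR-151-3p 4.45-fold lower (adjusted p = 4.4e-07). miR-708* was 1.52-fold lower (adjusted p = 0.0104), a call lost with TMM factors (adjusted p = 0.0571), and also without Gad2 replicate 1 or Neocortex replicate 2 (adjusted p = 0.0807 and 0.0552). miR-708 did not pass (log2 change -0.58, adjusted p = 0.0594), but did without Neocortex replicate 1 (log2 change -0.92, adjusted p = 0.00216) or Gad2 replicate 3 (log2 change -0.83, adjusted p = 0.0098). It also passed in edgeR with RLE factors and in DESeq2 (adjusted p = 0.0327 and 0.037). miR-28 stood at 59.7 ± 11.3 RPM in Gad2 and 69.6 ± 26.7 RPM in Neocortex (SD, n = 3 each), and neither of its arms passed. Vascular sums were 934 to 993 RPM in Camk2a and 295 to 354 RPM in Gad2, against 7841 to 8178 RPM in Neocortex. Blood and microglia sums were 12.6 to 17.5 RPM in Camk2a and 11.4 to 22.5 RPM in Gad2, against 1786 to 4035 RPM in Neocortex. Oligodendrocyte sums were 617 to 746 RPM in Camk2a and 626 to 694 RPM in Gad2, against 2038 to 3285 RPM in Neocortex, and the part of these cells in the results was not tested.

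Gad2, PV and SST cells were each compared with Camk2a cells under the same antibody, with strain and pooling changing with the group. In Gad2 cells all 6 members passed, 2 higher and 4 lower, where 38.1% of all tested miRNAs passed (21.5% higher, 16.7% lower). Both arms of miR-28 were higher in Gad2 cells, miR-28 by 3.01-fold (log2 change 1.59 ± 0.28 SE, adjusted p = 0.00015) and miR-28* by 2.12-fold (adjusted p = 0.0209). The call of miR-28* was lost under TMM scaling (adjusted p = 0.0519), and also without Camk2a replicate 2, Gad2 replicate 1 or Gad2 replicate 2 (adjusted p = 0.0992, 0.077 and 0.0586). miR-151-3p was 5.19-fold lower (adjusted p = 1.55e-07), miR-708 3.24-fold lower (adjusted p = 1.36e-05), miR-151-5p 3.16-fold lower (adjusted p = 2.56e-07) and miR-708* 2.1-fold lower (adjusted p = 9.41e-05). In PV cells the same 2 were higher and the same 4 lower, where 43.9% of all tested miRNAs passed (21.5% higher, 22.4% lower). miR-151-5p was 4.08-fold lower in PV cells (324 ± 66.4 RPM, n = 2) than in Camk2a cells (1322 ± 239 RPM, n = 3, SD each, adjusted p = 5.94e-08). miR-28 was 3.51-fold higher (adjusted p = 8.4e-05) and miR-28* 3.78-fold higher (adjusted p = 0.000502) in PV cells. miR-151-3p was 5.61-fold, miR-708 3.41-fold and miR-708* 1.65-fold lower (adjusted p = 2.29e-07, 2.17e-05 and 0.0066), the last not without PV replicate 1 (adjusted p = 0.0512). In SST cells 1 member was higher and 3 lower, where 46.6% of all tested miRNAs passed (32.4% higher, 14.2% lower). miR-28 was 2.93-fold higher (adjusted p = 0.000461), and miR-151-3p 2.83-fold, miR-708 2.46-fold and miR-151-5p 1.7-fold lower (adjusted p = 0.000133, 0.000588 and 0.00348). The call of miR-151-5p was lost without SST replicate 2 (log2 change -0.64). miR-28* did not pass (log2 change 0.6, adjusted p = 0.237). Its log2 change was 1.31 without SST replicate 1, -0.11 without SST replicate 2 and 0.0028 with TMM factors. The levels of all tested miRNAs were shifted up in SST by a median log2 change of 0.54, which TMM factors brought to -0.02. With those factors the log2 change was 0.94 for miR-28, -2.11 for miR-151-3p, -1.91 for miR-708 and -1.37 for miR-151-5p, against 1.55, -1.5, -1.3 and -0.77 without them, and all 4 calls held. With them miR-708* also passed as lower (log2 change -1.1, adjusted p = 0.000243), against -0.49 without them (adjusted p = 0.0562). Vascular sums were lower, at 295 to 354 RPM in Gad2, 295 to 330 RPM in PV and 734 to 766 RPM in SST, against 934 to 993 RPM in Camk2a. Choroid sums were higher, at 94.1 to 115 RPM in Gad2, 115 to 132 RPM in PV and 414 to 419 RPM in SST, against 66.3 to 91.4 RPM in Camk2a. Blood and microglia sums were 11.4 to 22.5 RPM in Gad2, 27.8 to 36.4 RPM in PV and 44.8 to 50.05 RPM in SST, against 12.6 to 17.5 RPM in Camk2a. Oligodendrocyte sums were 626 to 694 RPM in Gad2, 867 to 1078 RPM in PV and 942 to 1162 RPM in SST, against 617 to 746 RPM in Camk2a. The part of these cells in the results was not tested.

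PV cells were compared with SST cells, with 2 libraries each, and 1 member was higher and 2 lower, where 29.1% of all tested miRNAs passed (4.02% higher, 25.1% lower). miR-151-5p was 2.4-fold lower in PV cells (324 ± 66.4 RPM) than in SST cells (772 ± 97.3 RPM, SD, n = 2 each, log2 change -1.26 ± 0.22 SE, adjusted p = 0.000113). With TMM factors it was still called (log2 change -0.79, adjusted p = 0.0114). miR-151-3p was 1.98-fold lower (adjusted p = 0.0155), a call lost under TMM scaling (adjusted p = 0.206), and also without PV replicate 1, PV replicate 2 or SST replicate 2 (adjusted p = 0.0697, 0.0812 and 0.0778). miR-28* was 2.5-fold higher in PV cells (adjusted p = 0.0258), a call lost without SST replicate 1, which held 4 reads of it, PV replicate 1 or PV replicate 2 (adjusted p = 0.39, 0.127 and 0.0938). The call of miR-151-3p was also lost in edgeR with TMM or RLE factors and in DESeq2 (adjusted p from 0.212 to 0.29). miR-28, miR-708 and miR-708* did not pass in limma. For miR-28 the log2 change was 0.26 (adjusted p = 0.638), but 0.73 with TMM factors (adjusted p = 0.123) and 0.81 in DESeq2 on recovered reads, which called it (adjusted p = 0.0394). The median log2 change of all tested miRNAs was -0.42 here, and 13.8% of calls were higher in PV, against 42.2% with TMM factors. Neuronal marker sums were 332487 to 372554 RPM in PV and 167283 to 172026 RPM in SST. Vascular sums were 295 to 330 RPM in PV and 734 to 766 RPM in SST, and choroid sums were 115 to 132 RPM in PV and 414 to 419 RPM in SST. Blood and microglia sums were 27.8 to 36.4 RPM in PV and 44.8 to 50.05 RPM in SST, oligodendrocyte sums overlapped, and the part of these cells was not tested.

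Purkinje cells were compared with Gad2 cells of the neocortex, both GABAergic and both under anti-myc, with strain, pooling and region changing together. Of the 6 members, 4 were higher and 0 lower in Purkinje cells, where 55% of all tested miRNAs passed by limma (20.5% higher, 34.5% lower), and the count of lower members was also 0 at unadjusted p under 0.05 and in edgeR and DESeq2. miR-151-5p was 9.09-fold higher (log2 change 3.18 ± 0.18 SE, adjusted p = 3.96e-12), at 3767 ± 288 RPM in Purkinje and 414 ± 6.08 RPM in Gad2 (SD, n = 3 each). miR-28* was 6.67-fold higher (log2 change 2.74 ± 0.36 SE, adjusted p = 1.36e-06) and miR-151-3p 4.97-fold higher (adjusted p = 6.4e-08). miR-708* was 1.6-fold higher (adjusted p = 0.00346). miR-28 and miR-708 did not pass in limma (adjusted p = 0.231 and 0.349), nor with TMM factors there (adjusted p = 0.0626 and 0.0845). On recovered reads both passed as higher in edgeR with RLE factors (adjusted p = 0.0215 and 0.0328) and in DESeq2 (adjusted p = 0.0133 and 0.036). miR-28 also passed in edgeR with TMM factors (adjusted p = 0.045). Between the 2 regions, the change of cells against tissue (Purkinje minus Cerebellum, less Gad2 minus Neocortex) differed for 5 members, as it did for 45.8% of all tested miRNAs. The median log2 change in Purkinje against Gad2 was 1.5 over the members and -0.31 over all tested miRNAs. Oligodendrocyte sums were 2685 to 3187 RPM in Purkinje and 626 to 694 RPM in Gad2, and blood and microglia sums were 36.995 to 66.1 RPM in Purkinje and 11.4 to 22.5 RPM in Gad2. Choroid sums went the other way, with 10.7 to 17.4 RPM in Purkinje and 94.1 to 115 RPM in Gad2. Vascular sums overlapped, at 323 to 424 RPM in Purkinje and 295 to 354 RPM in Gad2, and the part of these cells in the results was not tested.

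**Figure D4:**
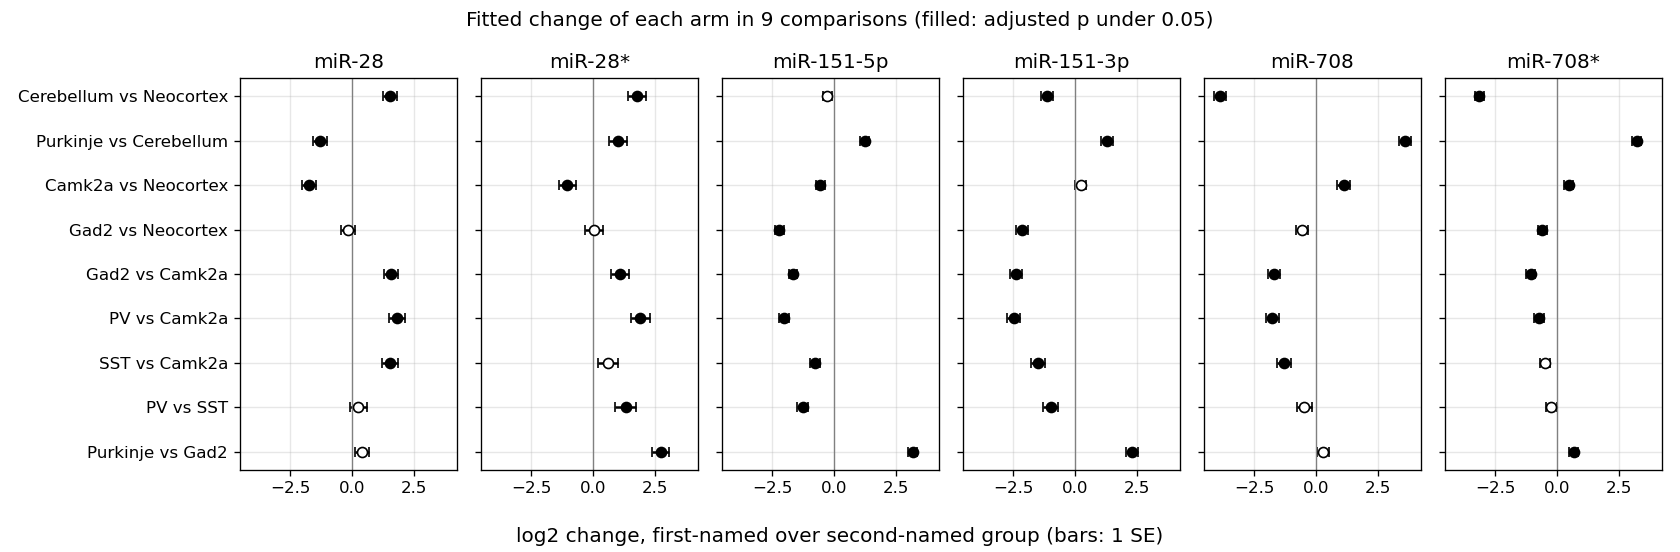
Fitted log2 change of each arm in 9 comparisons, the first-named group over the second-named, with bars of 1 SE and filled points at an adjusted p under 0.05. miR-708 has the widest span, from -3.9 in cerebellum against neocortex to 3.6 in Purkinje cells against cerebellum.

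The share of the minor arm in a hairpin's reads is a second readout, in which the scaling of a library cancels. For miR-28 the star arm took a larger share in Purkinje cells than in any other group. miR-28* made up 32.7% (95% Wilson interval 27.5 to 38.5), 39% (33.7 to 44.5) and 44.6% (39.9 to 49.3) of the hairpin's reads in the Purkinje libraries. In the Cerebellum libraries it made up 8.87% (6.08 to 12.8), 13.3% (11.02 to 15.9) and 12.5% (9.42 to 16.3). No Purkinje library overlapped any of the other 16 libraries, whose shares ran from 4.4% to 22.1%. The interval of the highest of these, Camk2a replicate 1 (16.9 to 28.4), met that of the lowest Purkinje library. In limma on log2 arm ratios of 156 hairpins, the ratio of miR-28* to miR-28 was 4.86-fold higher in Purkinje cells than in Cerebellum (log2 change 2.28 ± 0.54 SE, adjusted p = 0.00404). It was 5.05-fold higher in Purkinje cells than in Gad2 cells (adjusted p = 0.00462). Of all tested hairpins 29.5% passed in the first comparison and 21.8% in the second (12.8% and 10.9% as higher), and both calls held without any single library. The intervals hold counting error alone: the reads went through PCR with no molecular identifiers, so they are not separate molecules.

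The arm shares of the miR-151 and miR-708 hairpins also varied between groups. miR-151-3p made up 2.72% ± 0.183 of its hairpin's reads in Purkinje cells and 2.64% ± 0.388 in Cerebellum (SD, n = 3 each). It made up 5.01% ± 1.59 in Gad2, and 7.77% ± 1.04 in Camk2a against 4.84% ± 1.59 in Neocortex (SD, n = 3 each). All Camk2a libraries stood above all others, the lowest at 6.72% against 6.68% in PV replicate 1. miR-708* made up 21.3% ± 2.13 in Purkinje cells and 26.03% ± 4.32 in Cerebellum, 17.03% ± 1.42 in Gad2, and 11.8% ± 1.31 in Camk2a against 18.04% ± 7.64 in Neocortex (SD, n = 3 each). The Neocortex libraries spread from 10.97% to 26.1%. All 3 hairpins differed between any of the 7 groups (adjusted p = 0.00625, 0.00377 and 0.0331 for miR-28, miR-151 and miR-708), as did 71.2% of all tested hairpins. In the 9 comparisons the contrasts of the miR-151 and miR-708 ratios missed the threshold in limma. The nearest was miR-151-5p to miR-151-3p in Cerebellum against Neocortex, 1.8-fold higher (adjusted p = 0.0506). It passed with an arm pseudocount of 2 (adjusted p = 0.0472), with a minimum arm mean of 20 reads (adjusted p = 0.0369) and with the spread trended on minor-arm reads (adjusted p = 0.0324). The miR-151 ratio in Purkinje against Gad2 passed under the same 3 settings (adjusted p = 0.0416, 0.0477 and 0.0456). The miR-708 ratio in PV against Camk2a passed with the pseudocount of 2 and the trended spread (adjusted p = 0.0458 and 0.0245), and in Cerebellum against Neocortex with the trended spread (adjusted p = 0.0331).

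**Figure D5:**
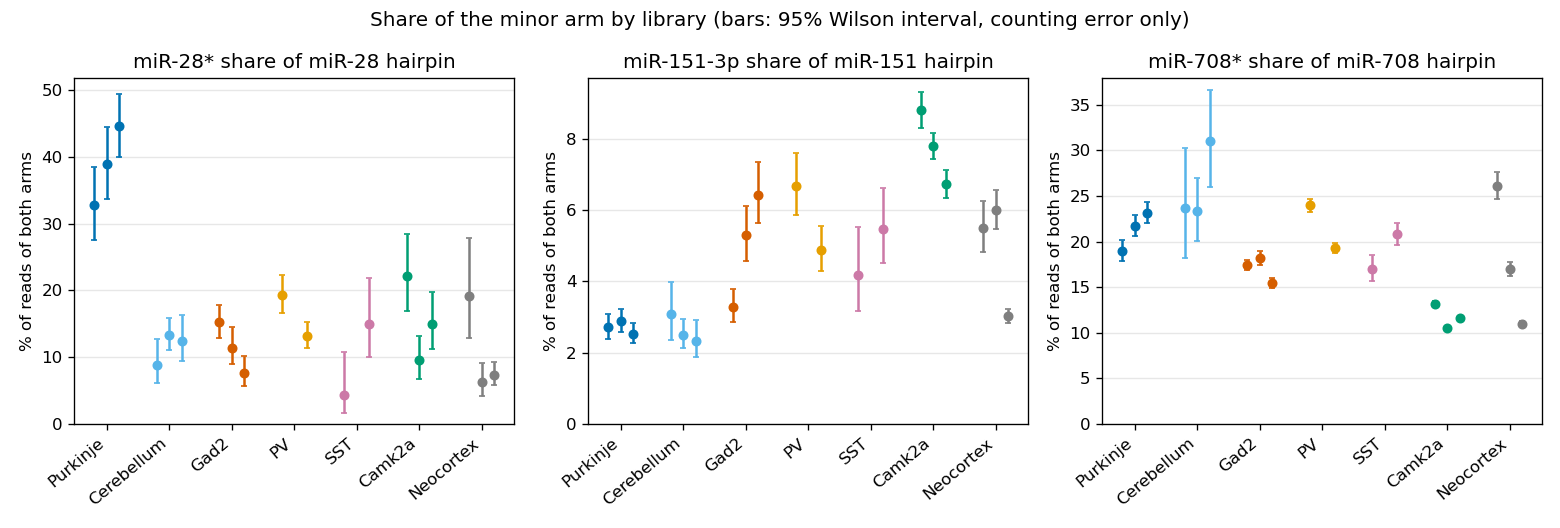
Share of the minor arm in the reads of both arms of each hairpin, in percent, for each library, with 95% Wilson intervals. The miR-28* share is 32.7% to 44.6% in the 3 Purkinje libraries and at most 22.1% in the other libraries.

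The miRNAs outside the family whose pattern was most like each member were sought among 168 names with a mean of at least 100 RPM, by Pearson r over the 7 group means of log2 values. For miR-708 these were miR-409-3p (r = 0.94), miR-1843-5p (0.91) and miR-411 (0.89). miR-708* shared miR-1843-5p (0.97), followed by miR-29c (0.91) and miR-29c* (0.91). For miR-151-5p they were miR-340-5p (0.94), let-7i (0.91) and miR-376c (0.81), and for miR-151-3p miR-376c (0.92), let-7i (0.8) and miR-31 (0.77). For miR-28 they were miR-9 (0.89), miR-181c (0.84) and miR-30b (0.77). miR-28* was closest to miR-133b (0.95), which held 9139.6 RPM in Purkinje cells and 499 RPM in Cerebellum, then to miR-133a (0.86) and miR-30d (0.85). The points share libraries and scaling, and the r values are descriptions.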

How the data were processed

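Small RNA bound to Ago2 was sequenced from 19 mouse brain libraries in 7 groups. Reads were aligned with Bowtie to mm9, per the submitters' processing notes. The values deposited by the authors are a normalised signal per miRNA: the file headers say reads per 1000000, yet each library sums to 10000000. Levels here are the deposited values over 10, as RPM. Whole reads were recovered from the steps between the deposited values, and depth ran from 1229834 to 14249087 reads. The table held values and not raw counts, so the main test was limma 3.58.1 (R 4.3.3) with a trend on log2(deposited value + 1). It used 522 of 528 names (value of at least 1 in 2 libraries), 7 group means and Benjamini-Hochberg adjustment per comparison. A call is an adjusted p under 0.05, and a fold change on this scale understates changes of low miRNAs. PV and SST have 2 libraries each and share the spread of all groups. Arm ratios were log2((first arm + 0.5)/(second arm + 0.5)) of recovered reads over 156 hairpins, star or 5p arm first. Alternatives were other pseudocounts, no filter, TMM factors, edgeR 4.0.16 and DESeq2 1.42.0 on recovered reads, a replicate block and each library left out. The named miRNAs are the 6 members and, for each, the 3 names with the highest r. Members, marker lists and comparisons were chosen with earlier results of these data known. The code was tested on simulated data.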

Additional observations from a re-analysis of the deposited data

Results flagged for a closer look

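The change from whole tissue to GABAergic cells differed between cerebellum (Purkinje minus Cerebellum) and neocortex (Gad2 minus Neocortex) for 5 of the 6 members, against 45.8% of all tested miRNAs. This difference of differences was added after the data were seen and was tested in the same limma fit with Benjamini-Hochberg adjustment. For miR-708 it was 4.18 on the log2 scale (adjusted p = 4.47e-09), with a change of 3.6 in cerebellum and -0.58 in neocortex. For miR-708* it was 3.83 (adjusted p = 2.96e-10). For miR-151-5p it was 3.46 (adjusted p = 6.8e-10), with 1.24 in cerebellum and -2.22 in neocortex, so that the directions were opposite. For miR-151-3p it was 3.44 (adjusted p = 5.67e-08), again with opposite directions. For miR-28 it was -1.13 (adjusted p = 0.026), and the call was lost without Cerebellum replicate 1, Purkinje replicate 3, Gad2 replicate 3 or Neocortex replicate 1 (adjusted p = 0.0535, 0.0537, 0.0603 and 0.0824). For miR-28* it was 0.96 and did not pass (adjusted p = 0.133). Purkinje and Cerebellum shared their strains, while strain changed from tissue to cells in neocortex (BALB/c in Neocortex, 129 in Gad2). Pooling changed from 1 to 3 tissues in cerebellum and from 1 to 4 in neocortex. Strain and pooling cannot be told apart from region in this difference.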

How the results depend on the processing

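Of 42 calls of a member in a comparison, 32 kept direction and call under every alternative and without any 1 library. With TMM factors the median log2 change of all miRNAs moved from -0.25 to 0.03 in Camk2a against Neocortex and from -0.19 to 0 in Purkinje against Cerebellum. The share of calls that were higher moved from 37.6% to 55.3% in Camk2a against Neocortex, 69.5% to 41% in SST against Camk2a and 56.3% to 44.5% in Gad2 against Camk2a with TMM factors. In Cerebellum against Neocortex it was 35.2%, and 35.8% with TMM factors. In Purkinje against Gad2 it was 37.3%, and 44.1% with TMM factors. In edgeR with RLE factors on recovered reads, where the test changes as well as the factors, these 2 shares were 46.9% and 50.5%. Uncalled changes turned sign: miR-28 in Gad2 against Neocortex (0.0037 with TMM factors), miR-151-5p in Cerebellum against Neocortex (0.0275 in edgeR with RLE, 0.0274 in DESeq2), and in PV against SST miR-708 (0.0038 with TMM factors, 0.021 in edgeR with TMM, 0.074 in both edgeR with RLE and DESeq2) and miR-708* (0.244, 0.239, 0.302 and 0.301). The cause was not tested. Without 1 library, log2 changes spanned 0 for miR-28 (-0.52 to 0.0643 in Gad2 against Neocortex, -0.0221 to 0.55 in PV against SST) and miR-28* (-0.0838 to 0.25 in Gad2 against Neocortex, -0.11 to 1.31 in SST against Camk2a). So did the arm ratios of miR-28 (-0.103 to 0.82 in Cerebellum and -0.16 to 0.76 in Gad2 against Neocortex, -0.24 to 0.48 in PV and -1.77 to 0.0357 in SST against Camk2a), miR-151 (-0.16 to 0.0414 in Purkinje against Cerebellum, -0.35 to 0.26 in Gad2 against Neocortex) and miR-708 (-0.39 to 0.37 in Gad2 against Neocortex). The miR-151 ratio in Cerebellum against Neocortex passed without Neocortex replicate 3 (adjusted p = 0.0101), as did that of miR-708 without Neocortex replicate 1 (adjusted p = 0.0108).

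Without 1 library, 94 (without PV replicate 1) to 159 miRNAs were called in PV against SST, where 152 were called with all. Calls of arm ratios ran from 29 to 58 in Camk2a and 11 to 30 in Gad2 against Neocortex, 0 to 3 in Gad2, 4 to 25 in PV and 10 to 27 in SST against Camk2a, and 1 to 4 in PV against SST. With an arm pseudocount of 2 they were 37 in Gad2 against Neocortex (23 with 0.5), 8 in Gad2 and 37 in PV against Camk2a (0 and 22), 7 in PV against SST (4) and 58 in Purkinje against Gad2 (34). With the spread trended on minor-arm reads, chosen after seeing the data, 10 were called in Gad2 against Camk2a.

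Whether same-numbered libraries were paired is not stated, and the main fit did not pair them. Their deviations correlated by -0.23 to 0.18, which cannot settle it with 2 or 3 libraries per group. A replicate block changed 1 call of a level, miR-708 in Gad2 against Neocortex (log2 change -0.58, adjusted p = 0.047), and 0 calls of arm ratios in limma. Depth limits miR-28*, with 25 reads in both SST libraries together.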
